A study of Ovis aries with 6 samples.

Results

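9 genes of tight junctions and desmosomes were followed in cultured sheep cells of the cornea and the skin. Their probes were found by the array's gene names and descriptions, which gave 14 probes for 9 genes out of 15008 gene probes, of which 1462 could be given a symbol and covered 908 genes. The genes were CLDN1, CLDN3, CLDN4 and CLDN7, OCLN, TJP3, F11R, JUP and MAL2. MAL2 is a membrane protein of apical transport in polarized epithelial cells and is not itself a junction protein.

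Total RNA came from 3 samples of corneal epithelia cells and 3 samples of skin epidermal stem cells of sheep (Ovis aries). The series' design text calls both sets cell lines and refers to earlier publications for their isolation, and the labels give no breed, age, sex, passage or treatment that separates the groups beyond tissue. All samples were adherent cells released with trypsin, which was then neutralised with serum. Each was hybridised with Cy3 to 1 array of an Agilent sheep design. The labels number the 3 samples of a group as replicates, and nothing says whether they came from different lines or animals. The p-values therefore measure only the spread between these samples. All 6 arrays lay on 1 slide, corneal arrays in row 2 and epidermal arrays in row 1, and the effect of the row on any difference cannot be told apart from that of the cell type.

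Tight junctions close the space between neighbouring epithelial cells. Claudins form their sealing strands and set which solutes pass, occludin is a strand-associated membrane protein, zonula occludens proteins such as TJP3 link the strands to actin, and F11R (junctional adhesion molecule A) is an immunoglobulin-type adhesion protein beside them. Desmosomes fasten keratin filaments to the membrane, and plakoglobin (JUP) joins their cadherins to desmoplakin and is also found in adherens junctions. In epidermis these junctions support the skin barrier, for which claudin-1 is required in mice, and in corneal epithelium they seal the outermost cell layer.

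The probes on which the results turn are 60-base oligonucleotides, given 5′ to 3′ as the arrays list them. The pairs of CLDN1 and CLDN4 are shown because their probes overlap and so are not separate measurements of the gene, with the shared stretch in capitals (40 bases for CLDN1, 59 for CLDN4).
CLDN1 probe 1: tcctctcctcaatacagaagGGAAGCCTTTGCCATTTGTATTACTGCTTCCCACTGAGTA
CLDN1 probe 2: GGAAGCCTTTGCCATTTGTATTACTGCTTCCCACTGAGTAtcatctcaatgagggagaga
CLDN4 probe 1: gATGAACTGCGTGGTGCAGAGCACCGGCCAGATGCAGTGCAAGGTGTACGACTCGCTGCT
CLDN4 probe 2: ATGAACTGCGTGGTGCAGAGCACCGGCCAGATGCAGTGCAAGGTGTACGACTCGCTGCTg
The 3 F11R probes are shown because their fitted changes ranged widely. They share no run longer than 8 bases. Probes 2 and 3 lie at bases 702 and 2075 of 1 assembled transcript that the array describes by its match to bovine junctional adhesion molecule A, and probe 1 lies at base 390 of a separate sheep cDNA read with the gene name F11R.
F11R probe 1: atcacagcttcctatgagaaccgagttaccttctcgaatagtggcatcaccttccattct
F11R probe 2: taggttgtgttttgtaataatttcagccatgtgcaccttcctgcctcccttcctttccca
F11R probe 3: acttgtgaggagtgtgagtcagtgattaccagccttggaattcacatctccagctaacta
JUP and MAL2 have 1 probe each, both named only by the array's description of a match to the bovine and human protein.
JUP: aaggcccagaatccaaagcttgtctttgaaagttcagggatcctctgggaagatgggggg
MAL2: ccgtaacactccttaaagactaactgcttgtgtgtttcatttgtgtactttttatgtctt
No probe of the 9 genes shared a run of 16 or more bases with a probe of another named gene. The arrays give no genome position for these probes. In the sheep RefSeq gene table of ARS-UI_Ramb_v3.0, CLDN3 and CLDN4 are neighbours on chromosome 24, CLDN1 lies beside CLDN16, another claudin gene, on chromosome 1, and OCLN lies beside MARVELD2, a gene of the same junction protein group, on chromosome 16.

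Values are the log2 of the scanner's processed signal minus that array's 75th percentile, so a value below 0 is dimmer than that percentile. Differences are corneal minus epidermal and were tested with limma across all kept probes. A probe was kept when 3 or more of the 6 arrays carried the scanner software's flag for a signal well above background, and it counts as changed at an adjusted p under 0.05. Between 72.9% and 81.6% of gene spots per array were well above background. Values correlated across probes at 0.995 to 0.996 among corneal arrays, 0.997 to 0.998 among epidermal arrays and 0.968 to 0.969 between them.

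The labelled cell types were set against their markers. KRT5 and KRT14, keratins of basal stratified epithelium, were well above background on no corneal array and on 2 epidermal arrays each, and KRT19 and TP63, the transcription factor of stratified epithelia, on no array. KRT15, a keratin of basal and follicle cells, read -6.54 ± 0.20 in corneal cells and -6.40 ± 0.18 in epidermal cells (SD, n = 3 each). These values lie near background, and KRT15 was well above it on 1 corneal and 3 epidermal arrays. KRT8, a keratin of simple epithelia, read -1.72 ± 0.13 in corneal cells and -1.84 ± 0.17 in epidermal cells, and PAX6, a transcription factor of eye development, -2.36 ± 0.13 in corneal cells and -2.66 ± 0.05 in epidermal cells (SD, n = 3 each). PAX6 was higher in corneal cells by 0.31 (limma adjusted p 0.0128), a call lost without scaling (0.13) and a sign turned under normexp (-0.26). SPINT2, a protease inhibitor of epithelia, fell by 0.26 (adjusted p 0.000652), and of the 8 epithelial identity genes with a probe 4 were tested, 1 higher and 1 lower.

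Fibroblast markers were bright in both groups. Of 12, 7 had a probe and all 7 were above background on every array. VIM read 8.60 ± 0.02 in corneal cells and 8.65 ± 0.13 in epidermal cells, DCN 8.15 ± 0.03 in corneal cells and 8.07 ± 0.44 in epidermal cells, and COL1A2 7.14 ± 0.04 in corneal cells and 7.22 ± 0.05 in epidermal cells (SD, n = 3 each). These are the brightest probes of each gene. A dimmer probe changed by -0.44 for DCN and -0.26 for COL1A2 (limma adjusted p 0.000121 and 0.0017), and by -0.24 for COL1A1, which was not called (0.0570). The summed level of the 7, as multiples of each array's 75th percentile, was 934 to 957 on corneal arrays and 964 to 1198 on epidermal arrays, against 2.00 to 2.06 on corneal arrays and 2.24 to 2.32 on epidermal arrays for the 8 genes of epithelial identity that had a probe. By these markers the data go against a purely epithelial label for either group, and the groups are called corneal and epidermal here as the labels name them. COL3A1, a fibrillar collagen, was 22.8-fold lower in corneal cells (limma adjusted p 1.64e-07). By the brightest probe of each gene, 3 of the 7 fibroblast markers were lower and 1 higher. Beside the counts of these marker lists, 3861 of all 11742 tested probes were called lower and 3138 higher. Of 10 endothelial markers 9 had a probe and 5 were tested, none higher and 3 lower. FLT1 changed by -0.63 (limma adjusted p 0.000923). The other called genes, VWF and TIE1, were dim on every corneal array and kept only through the epidermal arrays. Their calls thus support no difference, and no fold is given for them. PECAM1, CDH5 and TEK, defining markers of endothelium, were above background on no array, and the summed level of the list was 0.50 to 0.52 on corneal arrays and 0.45 to 0.54 on epidermal arrays. Of 12 immune markers 6 had a probe and 3 were tested, none higher and 1 lower, CD14 by -0.66 (limma adjusted p 2.20e-05). Their summed level was 14.6 to 15.0 on corneal arrays and 22.6 to 23.5 on epidermal arrays. Most of it came from the brightest CD14 probe, at 3.84 in corneal cells and 4.50 in epidermal cells. The other CD14 probes were dimmer, at 0.69 and 0.59 in corneal cells and 0.997 and 0.93 in epidermal cells. TYROBP read -1.01 in corneal cells and -0.85 in epidermal cells and was not called (limma adjusted p 0.113). CD3D, CD4 and CD8A were above background on no array. Of 8 melanocyte markers 2 had a probe and neither was kept. The part of other cells in the changes of CLDN1, F11R, JUP and MAL2 was not tested.

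Of the 14 probes, 7 for CLDN1, F11R, JUP and MAL2 were well above background on all 6 arrays. CLDN1 and JUP were higher in corneal cells, and F11R and MAL2 were lower. All 7 passed the threshold, 3 higher and 4 lower, where 61.1% of the 10749 probes above background on all arrays passed it, 28.6% higher and 32.5% lower (59.6% of all 11742 tested probes passed). A change of at least 2-fold was fitted for 5 of the 7, against 6.07% of those 10749 probes. Those 5 probes belong only to CLDN1, whose probes overlap, F11R and MAL2, genes chosen with earlier results of these data known. With normexp, leaving out spots of extreme local background, CLDN1 (0.88 and 0.84) and F11R probe 1 (-0.36) changed by less than 2-fold. The median change was -0.19 for the 7 probes and -0.02 for the 10749, and the median absolute change was 1.18 for the 7 and 0.23 for the 10749. The corneal and epidermal arrays did not overlap for any of the 7, which held for 69.2% of the 10749. The 7 are not all of the 14. CLDN4 probe 2 entered the fit through its 3 epidermal arrays alone and is described apart, and 6 probes were too dim to be kept. In RNA from a whole culture, fewer cells that express a gene and less RNA per cell cannot be told apart.

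**Figure D1:**
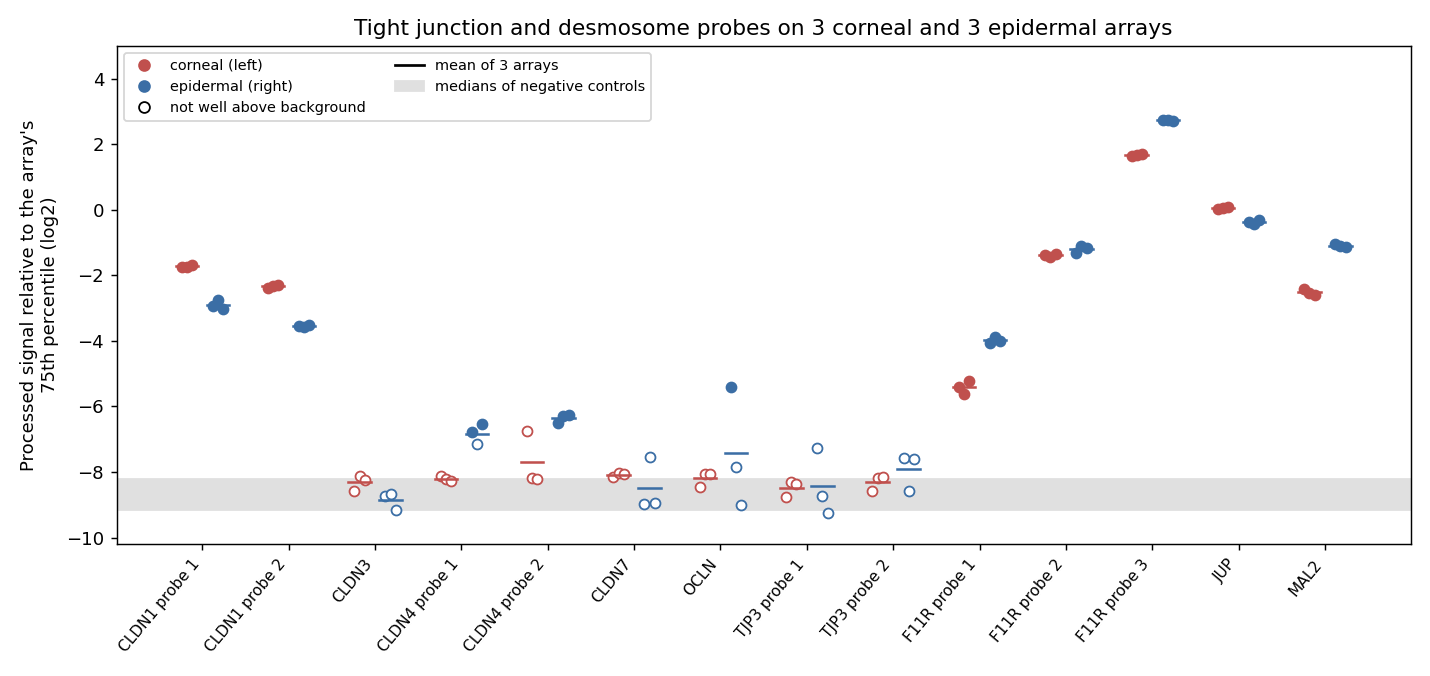
Processed signal of the 14 probes relative to each array's 75th percentile (log2, vertical axis), with 3 corneal arrays (red, left) and 3 epidermal arrays (blue, right) per probe. Open points are spots not well above background, short lines are means of 3 arrays and the grey band spans the 6 arrays' medians of the negative control spots (-9.16 to -8.22); CLDN1, F11R, JUP and MAL2 are well above background on every array, while no corneal point of the remaining probes is, and above the band these also show epidermal points of CLDN4 (up to -6.27) and OCLN (-5.41 on replicate 1).

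Among the claudins, CLDN1 was the one measured in both cell types, and it was higher in corneal cells by more than 2-fold. CLDN1 is a major claudin of the epidermis. Its probe 1 read -1.74, -1.73 and -1.69 on the corneal arrays 1 to 3, against -2.94, -2.75 and -3.01 on the epidermal arrays. All corneal values lay above all epidermal values, with 1.01 between the nearest arrays. The fitted difference was 1.18 ± 0.07 (SE, n = 3 each; 95% interval 1.00 to 1.36), a 2.27-fold higher signal, with an adjusted p of 5.97e-05 in limma. Probe 2 read -2.38, -2.34 and -2.29 in corneal cells, against -3.56, -3.57 and -3.52 in epidermal cells. Its difference of 1.21 ± 0.04 (SE, n = 3 each) was 2.32-fold, with a limma adjusted p of 3.79e-06. The groups were again apart on every array. The 2 differences differed by -0.03, probe 1 minus probe 2, which an exact two-sided permutation test over the 6 arrays did not separate (p = 0.8; adjusted over 4 probe pairs 0.8). As the probes share 40 bases, this compares overlapping measurements of 1 transcript. The size depended on the background correction: with normexp the changes were 0.32 and 0.15 for probes 1 and 2 and did not pass, and without its spots of extreme local background they were 0.88 and 0.84, under 2-fold, and passed.

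CLDN4, one of the claudins that tighten the paracellular path in many simple epithelia, was read near background. Probe 2 read -6.73, -8.18 and -8.20 on corneal arrays, against -6.50, -6.30 and -6.27 on epidermal arrays. None of the corneal spots and all 3 epidermal spots were well above background. Of the corneal values, 2 are surrogates that the scanner software set for dim spots. Corneal replicate 1 stood 0.23 below the lowest epidermal array, and the other two corneal arrays stood far lower. No fold or interval is given, since the corneal level is known only as a bound and that bound reached the epidermal level. The limma fit gave an adjusted p of 0.0346 for the measured values, but the probe was kept only through the group in which it was brighter, so this p supports no difference. It stayed under the threshold in 5 of 16 alternatives. Without corneal replicate 1 it was 0.000135, and without any 1 of the other 5 arrays it was between 0.0723 and 0.0946.

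CLDN4 probe 1, offset from probe 2 by 1 base, was well above background on 2 epidermal arrays and no corneal array, so it was not kept for the test. It read -8.12, -8.22 and -8.26 in corneal cells, against -6.79, -7.16 and -6.53 in epidermal cells, again without overlap. Here too 2 corneal values are surrogates, and no fold is given. Both probes are the same measurement but for 1 base at each end.

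CLDN3 and CLDN7 were not well above background on any array. CLDN3, a sealing claudin of simple epithelia, read -8.58, -8.12 and -8.24 in corneal cells, against -8.72, -8.68 and -9.17 in epidermal cells. CLDN7, a claudin that also lies along the lateral membrane, read -8.15, -8.04 and -8.07 in corneal cells, against -8.99, -7.56 and -8.94 in epidermal cells. These values lie in or near the range of the negative control spots, whose median was between -9.16 and -8.22 on the 6 arrays, so no direction is given for either gene.

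Occludin and TJP3 were also at background. OCLN was well above background on 1 of the 6 arrays, epidermal replicate 1. It read -8.46, -8.05 and -8.07 in corneal cells, against -5.41, -7.85 and -9.0 in epidermal cells. The epidermal arrays thus ran from above to below all corneal arrays. The 2 probes of TJP3, a zonula occludens scaffold, were above background on no array and overlap by 59 bases. TJP3 probe 1 ranged from -8.77 to -8.29 in corneal cells and from -9.25 to -7.28 in epidermal cells, and probe 2 from -8.58 to -8.16 in corneal cells and from -8.59 to -7.56 in epidermal cells. Over the 14 probes, 28.6% were above background on no array and 50% on all 6, against 14.4% and 71.6% of all gene probes.

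F11R was lower in corneal cells at all 3 probes, with fitted changes between -1.42 and -0.19. Probe 3 read 1.63, 1.68 and 1.70 on corneal arrays, against 2.73, 2.73 and 2.72 on epidermal arrays. The corresponding processed signals were 2802 to 2890 in corneal cells and 6372 to 7346 in epidermal cells, well above background on every array. The difference was -1.06 ± 0.03 (SE, n = 3 each), a 2.08-fold lower signal in corneal cells (limma adjusted p 3.48e-06).

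F11R probe 1 read -5.40, -5.61 and -5.21 in corneal cells, against -4.07, -3.88 and -4.0 in epidermal cells. It fell by 1.42 ± 0.11 (SE, n = 3 each), 2.68-fold, with a limma adjusted p of 0.000165. Its processed signals were low, 18.5 to 23.9 in corneal cells and 60.8 to 65.9 in epidermal cells. On corneal replicates 1 and 2 its values lay below the brightest negative control spot of the array (-4.97 and -4.34). On corneal replicate 3 (-5.85) and on the epidermal arrays they lay above it. Probe 2 read -1.38, -1.43 and -1.35 in corneal cells, against -1.32, -1.11 and -1.15 in epidermal cells. Its groups were separated by 0.02 and its difference was -0.19 ± 0.06 (SE, n = 3 each; limma adjusted p 0.0474), a call kept under 4 of 16 alternatives. Leaving out epidermal replicate 1 gave -0.25 (adjusted p 0.00574), and leaving out any 1 of the other 5 arrays ended the call, with adjusted p between 0.0777 and 0.131.

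The changes of the 3 F11R probes were compared within arrays. Probe 1 minus probe 2 was -1.24, probe 1 minus probe 3 was -0.37 and probe 2 minus probe 3 was 0.87. Each gave an exact two-sided permutation p of 0.1, the smallest that 3 arrays against 3 allow (adjusted 0.133 over 4 pairs), so this test cannot place them past the threshold. For probe 2 minus probe 3 the within-array difference had an SD of 0.05 over corneal arrays and 0.12 over epidermal arrays (n = 3 each). The difference between probes 2 and 3, which lie on the same assembled transcript, was 0.80 to 0.91 whichever array was left out. The place of the dim probe 1 depended on the background correction: with normexp, leaving out spots of extreme local background, its own change was -0.36 and probe 1 minus probe 3 was 0.72. Which transcript forms each probe detects was not tested.

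**Figure D2:**
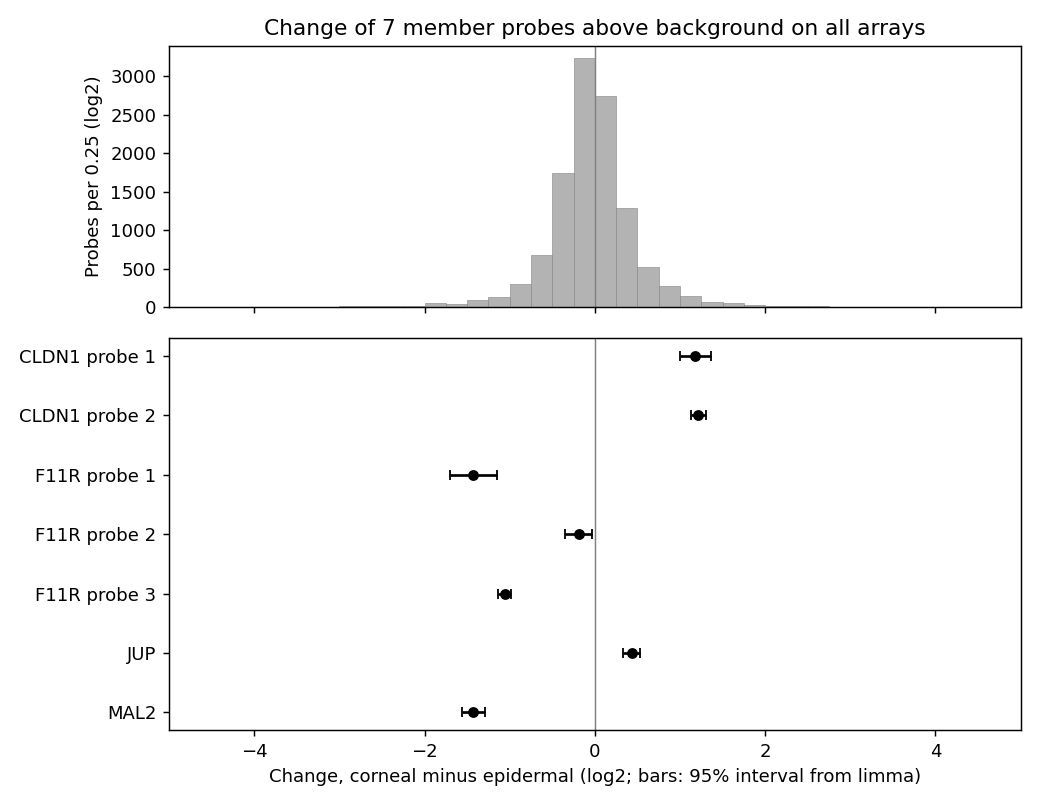
Change of the 7 probes well above background on all 6 arrays, corneal minus epidermal (log2, horizontal axis), with 95% intervals from limma (lower panel), under the distribution of the same change over the 11742 tested probes (upper panel, number of probes per bin; a few probes lie beyond the axis). CLDN1 and JUP lie right of 0 and F11R and MAL2 left of it, with changes between -1.43 and 1.21.

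JUP, the plakoglobin of desmosomes and adherens junctions, was modestly higher in corneal cells. It read 0.04, 0.07 and 0.09 on the corneal arrays, against -0.39, -0.42 and -0.30 on the epidermal arrays. The groups did not overlap. The difference was 0.43 ± 0.04 (SE, n = 3 each; 95% interval 0.33 to 0.54), a 1.35-fold higher signal with a limma adjusted p of 0.000368. Of all tested probes, 71.8% had a smaller absolute change.

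MAL2 was lower in corneal cells. Its probe read -2.42, -2.54 and -2.59 on corneal arrays, against -1.05, -1.10 and -1.12 on epidermal arrays. All corneal arrays lay below all epidermal arrays, with 1.3 between the nearest. The difference was -1.43 ± 0.05 (SE, n = 3 each; 95% interval -1.56 to -1.29), a 2.69-fold lower signal with a limma adjusted p of 9.61e-06, and 95.5% of tested probes had a smaller absolute change. It was the one tested member probe that kept its call in every alternative tried.

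The genes whose 6-array profiles lay nearest to each member were taken from 673 named genes above background on all arrays, by the root mean square distance between centred profiles. For CLDN1 probe 2 these were CSF2, a colony-stimulating cytokine (distance 0.032), and CHI3L1, a secreted chitinase-like protein (0.032), and for CLDN1 probe 1 GGTA1 (0.063) and CSF2 (0.072). JUP lay nearest to RAC1, a small GTPase (0.031), and CEBPB, a transcription factor (0.031). MAL2 lay nearest to PRND (0.042) and FABP5, a fatty acid binding protein of epidermis (0.047). F11R probe 1 lay nearest to OPRK1 (0.077) and KLK1 (0.087), and probe 3 to GSTA1-1 (0.050) and SCD5 (0.056). AK1, an adenylate kinase, was near probe 2 (0.026). The 6 arrays form 2 groups of 3, so near profiles share the size of the group difference, and nothing is drawn from them about function.

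Other junction genes were read beside the members, from lists of which few genes had a named probe. Of 18 other claudins, 2 had a probe and none was kept: CLDN17 was above background on no array and CLDN2 on 1 epidermal array. Among other tight junction proteins and partners, AMOTL1, an actin-linked partner, was higher by 0.29 (limma adjusted p 0.0403), a call lost under 7 of 17 alternatives, with its sign turned under 1. The scaffold TJP1 did not pass, with a difference of 0.29 (adjusted p 0.157).

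TJP1 read -3.87, -4.01 and -3.44 in corneal cells, against -4.04, -4.18 and -3.98 in epidermal cells. It is the broadly expressed relative of TJP3 and was above background on every array, unlike TJP3. Of 16 other desmosome proteins, PPL and DSP had a kept probe. PPL (periplakin), which ties keratin to the cell border, fell by 0.54 (limma adjusted p 5.14e-05). DSP (desmoplakin), the plaque protein that plakoglobin binds, differed by -0.36 (adjusted p 0.149) and was above background on 1 corneal and 3 epidermal arrays. JUP and PPL thus changed in opposite directions, and the difference between their changes was not tested.

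Of 27 adherens junction genes, 2 had a kept probe and both were higher in corneal cells. As 59.6% of all 11742 tested probes passed, the counts of these short lists set none of them apart. ACTN4, an actin crosslinker, was 2.12-fold higher (limma adjusted p 5.26e-06), and CTNNB1, the beta-catenin relative of plakoglobin, was 1.32-fold higher (adjusted p 0.00122). The other CTNNB1 probe was above background on no array (mean -8.65 in corneal and -9.29 in epidermal cells). Among gap junction genes, GJA1, the most widespread connexin, fell by 0.41 (limma adjusted p 0.000862), and its 4 probes lay between -0.42 and -0.40. GJB2, a connexin induced in wounded epidermis, was above background on no array at any of its 5 probes. Of 20 genes of the MAL family and apical transport, 3 had a kept probe, with 2 lower and none higher. RAB11A of recycling endosomes changed by -0.46 (limma adjusted p 0.000348) and PLS1 of microvilli by -0.41 (adjusted p 0.000925), while RAB8A differed by -0.08 (adjusted p 0.175). No probe was named CDH1, EPCAM, PERP, CLDN5 or CLDN11, and these genes were not analysed here.

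**Figure D3:**
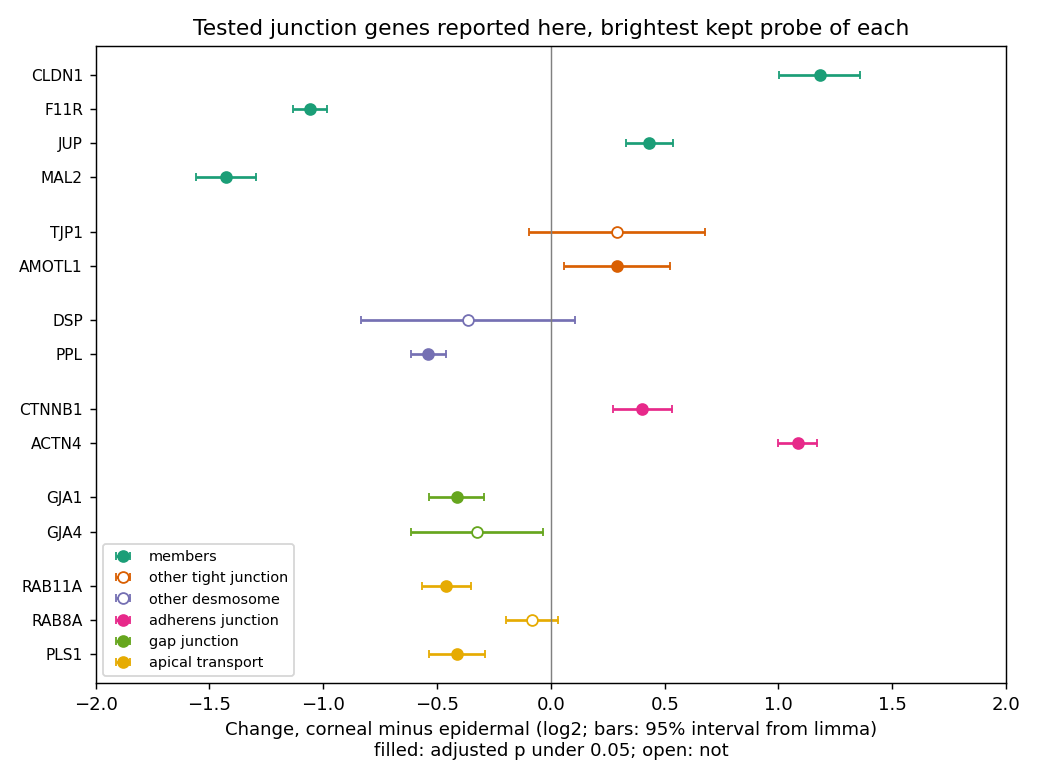
Change of the tested junction genes reported here that were above background in both groups, corneal minus epidermal (log2, horizontal axis; bars are 95% intervals from limma), by list, with the brightest kept probe per gene. Filled points have an adjusted p under 0.05 and open points do not; the members span both directions, with CLDN1 farthest right at 1.18 and MAL2 farthest left at -1.43.

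The transcription factors of epithelial to mesenchymal transition, which repress claudins and occludin in other epithelial cells, had 2 tested genes. SNAI1 fell by 0.35 in corneal cells (limma adjusted p 0.0118), and SNAI2 differed by 0.07 (adjusted p 0.311).

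The changes of the 7 probes were compared across other scalings. Without scaling between arrays the median change of all tested probes was -0.22, against -0.04 with scaling, and the share of calls that were higher was 22.5%, against 44.8% with scaling. The 7 probes kept their directions and calls there, with CLDN1 probe 2 at 1.04 and MAL2 at -1.60. With each array's median, quantile normalization or the authors' deposited log2 table, the directions of the 7 held, and F11R probe 2 lost its call under each of them (adjusted p 0.0616, 0.0526 and 0.0527).

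**Figure D4:**
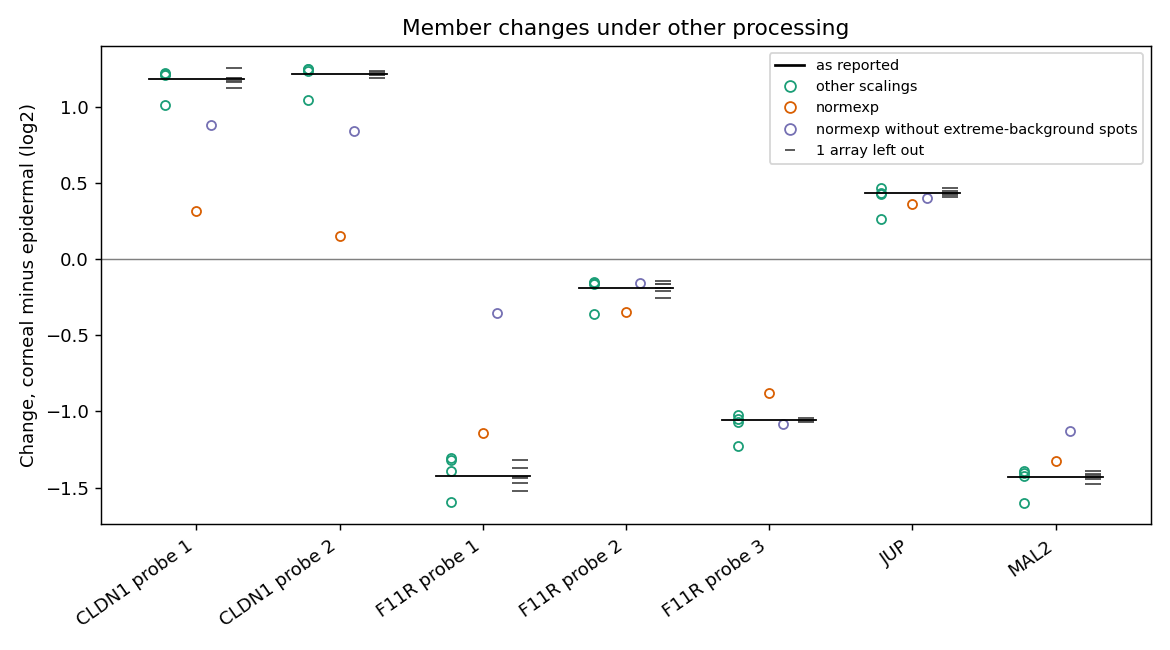
Change of the 7 probes well above background on all 6 arrays, corneal minus epidermal (log2, vertical axis), as reported (black line), under 4 other scalings (green; median, quantile, none, and the deposited log2 table), under normexp background correction with all spots (orange) and without spots of extreme local background (violet), and with 1 array left out (dashes). All 7 stay on their side of 0 in these settings, and the CLDN1 probes are lowest under normexp with all spots (0.32 and 0.15).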

How the data were processed

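Per the labels' protocols, total RNA of 6 sheep samples was labelled with Cy3 and hybridised to 1-colour Agilent sheep arrays. The authors deposited scanner intensities; the submitters' processing notes name Agilent Feature Extraction 10.7. Per the file headers, the software subtracted background from the processed intensity, removed spatial and multiplicative trends inside each array and put surrogates in place of the dimmest spots, while no step between arrays is recorded. Flags for signal above background and for outlier spots came with the deposited files and are the scanner software's own. A second deposited table, of log2 values from the authors, had a median of 7.23 in each column, and its steps are not given in the sources used here. Its columns matched the log2 processed intensity of their own arrays with r from 0.99897 to 0.99988. At equal rank its columns lay within 0.020 of each other, so the table is log2, quantile normalized and not centred by gene, and single-colour values have no direction. It served as an alternative.

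Here the log2 processed intensity was set against the array's 75th percentile and averaged per probe, without control spots and without spots flagged as outliers (values of 41 probes; none belonged to the 9 genes). The 11742 of 15008 probes with 3 or more arrays well above background, whatever the group, entered limma 3.58.1 (R 4.3.3), over all 6 arrays with no block, adjusted by Benjamini-Hochberg over these probes. Where every array of a group was dim, only a bound is known. No saturated spot occurred. Differences between probes of a gene were tested by exact permutation of the 6 arrays. Probe names came from accessions, symbols and descriptions of the arrays, matched to sheep RefSeq gene names, and 13546 probes have no symbol here. The number of arrays limits the precision.

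The 9 genes, the lists of other junction genes and markers, and the tests were chosen with earlier results of these data known. The text names all probes of the 9 genes, certain further junction genes and markers given by name, up to 4 changed genes of each list in each direction, and the 2 nearest profiles of each changed probe. A few genes that this rule would name are not reported here. Alternatives covered background correction, scaling, filters, the replicate block and leaving out arrays.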

Additional observations from a re-analysis of the deposited data

How the results depend on the processing

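MAL2 kept its direction and call under all 17 alternatives. Both CLDN1 probes, F11R probes 1 and 3 and JUP kept theirs under all but one, normexp background correction with offset 50, which called 425 probes in all and 1 of the 8 tested member probes. Under it CLDN1 changed by 0.32 and 0.15, F11R probes 1 and 3 by -1.14 and -0.88 and JUP by 0.36. On epidermal replicate 1 this correction met 7 spots of extreme local background (over 10 times the array's median); without them it called 7062 of 11736 probes and 6 member probes, and CLDN4 probe 2 turned to 0.079. With 1 probe per gene, 5 member probes remained to be tested and all 5 were called, beside 6657 of all 11234 probes. The 5 include CLDN4 probe 2, kept only through its epidermal arrays, whose call supports no difference. With 1 array left out, 6151 to 6691 probes and 6 to 7 member probes were called.

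The differences between probes of a gene were recomputed under alternatives chosen after the data were seen. CLDN1 probe 1 minus probe 2 was 0.17 under normexp, 0.035 without the extreme spots and -0.10 to 0.051 with 1 array left out. F11R probe 1 minus probe 2 was -0.79 under normexp and -0.20 without the extreme spots, probe 1 minus probe 3 was 0.72 without them, and probe 2 minus probe 3 was 0.53 under normexp. The cause was not tested.

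Same-numbered samples of the 2 groups did not deviate together (correlations 0.02, -0.03 and 0.04). With 3 samples per group this cannot decide whether the numbers pair the samples, which the labels do not state. With the replicate block, 6223 probes and 6 of 8 member probes were called; CLDN4 probe 2 (adjusted p 0.0638) and F11R probe 2 (0.0837) were not. Low signal limits CLDN3, CLDN4, CLDN7, OCLN and TJP3, for which no level could be set in corneal cells.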
